A study of Mus musculus with 6 samples.

Results

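The transcripts of 10 interferon effector genes of the IFIT, OAS and ubiquitin-like families were examined in C2C12 myotubes with and without *Dj1* knockdown. The genes, IFIT1, IFIT2, IFIT3, OAS1A, OASL1, OASL2, ISG15, USP18, RSAD2 and IFI44, were listed by name, with earlier results of these data known. A probe was taken as theirs where the gene name given for it on the array was one of these, whatever its case. This held for 9 of the 30854 gene names on the array and for 16 of its 45281 probes. ISG15 had no probe under its own name and was found through its gene number. C2C12 cells are mouse myoblasts, kept as a line, which become multinucleated myotubes when they differentiate. Myoblasts received 60 nM of scramble siRNA or of 1 siRNA duplex against *Dj1* (also known as *Park7*) with the lipid reagent RNAiMAX, differentiation was started 48 h later, and RNA was taken 4 days after that. No untransfected culture and no other duplex against *Dj1* were analysed here. Loss of DJ-1, other effects of this duplex and effects of the scramble siRNA therefore cannot be told apart. Each group had 3 samples, and the 6 arrays lay on 1 Illumina mouse BeadChip, on which every probe is read on many beads. A probe counts as detected on an array where its detection p-value, its rank among negative control probes, was under 0.05. The number of detected probes was 16985, 17399 and 18179 on the scramble arrays against 18704, 18857 and 18408 on the DJ-1 siRNA arrays. The median standard error over beads was between 8.30 and 11.3 signal units on the scramble arrays and between 5.88 and 7.17 on the DJ-1 siRNA arrays, and the part of this difference in the values given here was not tested. Nothing states that the 3 samples of a group were separate cultures, so that p-values measure the spread between these samples, which may be technical.

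Type I interferons bind a receptor made of IFNAR1 and IFNAR2 and act through transcription factors, STAT2 and IRF9 among them, which bind interferon-stimulated response elements in the promoters of target genes. The products of these genes limit the growth of viruses. IFIT proteins bind viral RNA, OAS enzymes make 2′-5′-linked oligoadenylates, and ISG15 is a ubiquitin-like protein that is coupled to other proteins and removed from them by USP18. Most of these genes are weakly expressed in unstimulated cells.

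The targeted gene was examined first. *Park7* had 1 probe (ILMN_2728754), whose deposited signal was 12019.5, 10900.4 and 12251 on the scramble arrays against 5935, 6585.5 and 4234 on the DJ-1 siRNA arrays. The groups did not overlap, and the lowest signal was that of DJ-1 siRNA replicate 3. On the normalized log2 scale its mean was 13.53 ± 0.14 (SD, n = 3) after scramble siRNA and 12.37 ± 0.19 (SD, n = 3) after *Dj1* knockdown. The labelled cell type was then checked. All 13 probes of the 10 myotube genes examined (Myog, Myod1, Ckm, Acta1, Myh3, Des, Tnnt3, Tnnc2, Mb and Myl1) were detected on all 6 arrays, with Acta1 reaching the highest signal of 47807. Of these probes, 5 were lower after *Dj1* knockdown (limma, adjusted p under 0.05) and 0 were higher, where 13.6% of all tested probes were lower and 16.5% higher. Their summed deposited signal was 213233, 223626 and 199449 on the scramble arrays against 190727, 213747 and 169333 on the DJ-1 siRNA arrays. The part of this in the interferon effector values was not tested. Of 7 leukocyte genes with a probe, 0 were detected on all arrays and 4 on none, the pan-leukocyte gene Ptprc among the latter. A probe of the macrophage gene Cd68 was detected on 1 scramble array and all 3 DJ-1 siRNA arrays and did not pass the test (adjusted p = 0.169 from limma), and no size is given for it. The highest signal in the leukocyte list was 195, for Cd3e. The endothelial genes Pecam1, Cdh5 and Kdr reached 191 at most and were not detected on all arrays either.

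The promoters of the genes were read to see what the members share besides their names. The set of RefSeq (GRCm38.p6) promoter windows used here, from 250 bases before to 50 bases after the annotated start, held 9 of the 10 genes. USP18 had no window in this set, although its probes match a RefSeq gene. Each was searched on both strands for the core of the interferon-stimulated response element, GAAANNGAAA, and for the core of the gamma-activated site, TTCNNNGAA. The first was present in 5 of the 9 genes (IFIT1, IFIT3, OAS1A, ISG15 and RSAD2) and in 3.99% of all 27018 genes of the table. The second was present in 2 of the 9 (OAS1A and 1 of the 2 windows of IFIT2) and in 9.55% of all genes. The windows of 4 members are given 5′ to 3′ on the strand of the gene, in lower case with matches to the first motif in capitals. They are ISG15 (chr4:156200769-156201068, minus strand), IFIT3 (chr19:34583279-34583578, plus strand) and RSAD2 (chr12:26456403-26456702, minus strand), which hold the motif, and IFI44 (chr3:151749861-151750160, minus strand), which holds no match.
ISG15: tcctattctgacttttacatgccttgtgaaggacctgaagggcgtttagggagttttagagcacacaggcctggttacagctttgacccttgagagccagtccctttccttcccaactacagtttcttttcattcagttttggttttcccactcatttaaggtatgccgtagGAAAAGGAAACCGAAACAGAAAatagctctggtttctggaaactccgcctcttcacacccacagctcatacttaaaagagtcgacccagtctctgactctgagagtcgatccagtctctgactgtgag
IFIT3: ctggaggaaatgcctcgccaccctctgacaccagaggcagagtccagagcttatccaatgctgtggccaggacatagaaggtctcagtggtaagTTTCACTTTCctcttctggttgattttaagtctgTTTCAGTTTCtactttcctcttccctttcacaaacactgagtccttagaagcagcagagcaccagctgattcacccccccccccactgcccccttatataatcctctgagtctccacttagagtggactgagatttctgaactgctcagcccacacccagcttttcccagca
RSAD2: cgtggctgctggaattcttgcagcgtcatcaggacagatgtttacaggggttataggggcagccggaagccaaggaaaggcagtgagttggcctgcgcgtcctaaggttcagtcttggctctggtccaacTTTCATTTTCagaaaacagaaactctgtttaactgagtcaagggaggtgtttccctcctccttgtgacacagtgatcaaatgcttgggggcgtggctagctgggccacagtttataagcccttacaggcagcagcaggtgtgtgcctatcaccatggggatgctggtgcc
IFI44: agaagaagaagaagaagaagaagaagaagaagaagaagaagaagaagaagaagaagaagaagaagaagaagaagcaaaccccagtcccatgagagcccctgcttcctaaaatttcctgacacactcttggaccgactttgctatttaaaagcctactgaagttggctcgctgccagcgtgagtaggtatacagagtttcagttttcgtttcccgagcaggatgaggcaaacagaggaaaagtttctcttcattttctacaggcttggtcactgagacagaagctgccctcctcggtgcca
In ISG15 the capitals are 3 matches that overlap one another, on the strand of the gene, with first bases at -78, -72 and -66 from the start. IFIT3 holds 2 separate matches on the other strand, with first bases at -156 and -122, and RSAD2 holds 1 on the other strand at -120. A match is a description of letters, and the absence of one in IFI44, OASL1 and OASL2 says only that these letters are not in this window. The windows of IFIT2, IFIT3, Ifit3b and IFIT1 lie in this order on chromosome 19, all on the plus strand.

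**Figure D1:**
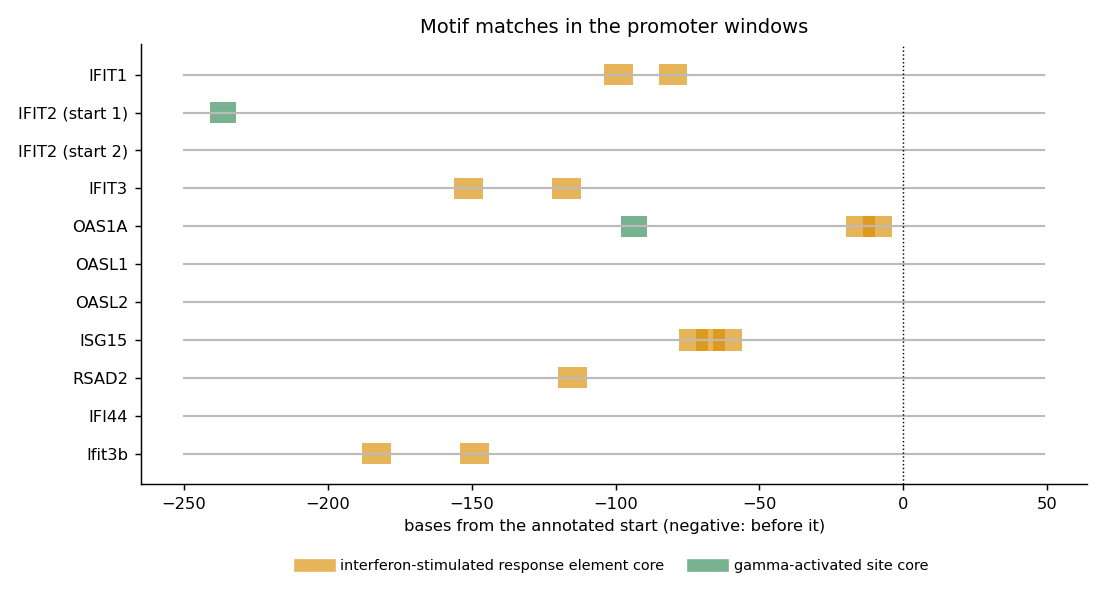
Positions of motif matches in the promoter windows of the members and of Ifit3b, a close relative of IFIT3. Each grey line is a window from 250 bases before to 50 after the annotated start (horizontal axis, bases), orange boxes are matches to the interferon-stimulated response element core and green boxes to the gamma-activated site core, and darker orange is overlap. IFIT2 has 2 annotated starts. IFIT3 and Ifit3b both hold 2 separate matches, and ISG15 and OAS1A hold overlapping ones close to the start.

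Every member probe that could be tested was lower after DJ-1 siRNA than after scramble siRNA. Of the 16 probes, 12 (7 genes) were detected on at least 3 of the 6 arrays and were tested, and 4 were too dim. Of the tested probes, 11 were detected on all 6 arrays, and none passed through the arrays of 1 group alone. All 12 had an adjusted p under 0.05 in the lower direction (limma, Benjamini-Hochberg over the 17890 tested probes of the array), where 13.6% of all tested probes were lower and 16.5% were higher. The members were chosen with earlier results of these data known, so this count is a description and no test of the list. With 1 array left out the count was 7 to 11, and it was lowest when DJ-1 siRNA replicate 1 was removed. Without that array, 1172 of all 17890 tested probes were lower. The normalized signal of all 3 DJ-1 siRNA arrays lay below that of all 3 scramble arrays for each of the 12, as it did for 22% of all tested probes. For a single probe, 3 arrays against 3 allow no two-sided exact permutation p under 0.1. The median log2 fold change was -1.16 over the tested member probes and 0.05 over all tested probes, and 7 of the 12 were lower by 2-fold or more, as were 526 of all 17890 tested probes at an adjusted p under 0.05. The median was -0.62 without background correction, which lowers the fold change of dim probes. RNA came from whole cultures, so fewer cells that carry a transcript and less of it per cell cannot be told apart.

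**Figure D2:**
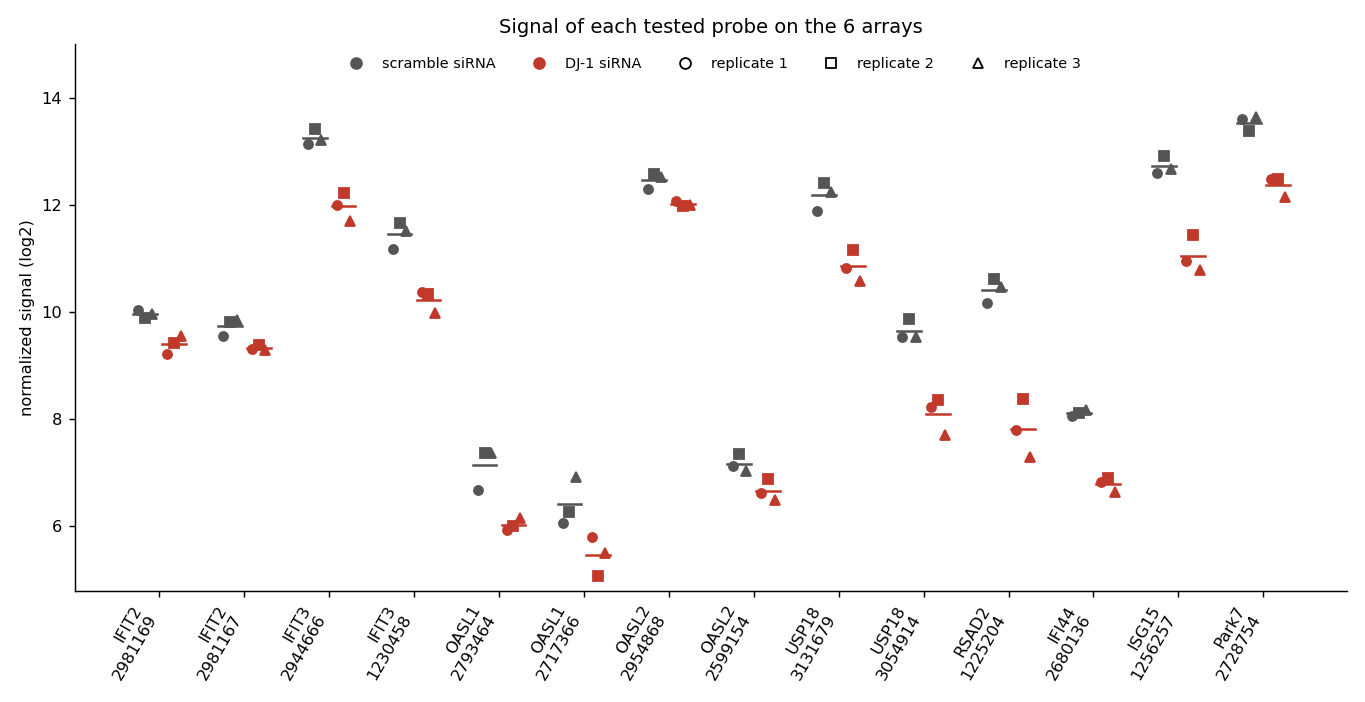
Normalized log2 signal (vertical axis) of each tested probe on each array, by gene and probe number, for scramble siRNA (grey) and DJ-1 siRNA (red). Symbols are the 3 replicates and short lines the group means. For every probe shown, the 3 DJ-1 siRNA arrays lie below the 3 scramble arrays, with the widest gap for RSAD2 and narrow gaps for IFIT2 and OASL2.

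The IFIT family has tetratricopeptide repeats that hold RNA and other IFIT proteins. IFIT3 had 2 probes. The deposited signal of ILMN_2944666 was 9001, 11070.3 and 9278 on the scramble arrays against 4259, 5472 and 3122 on the DJ-1 siRNA arrays. That of ILMN_1230458 was 2487, 3408 and 2938.5 after scramble siRNA and 1467, 1582 and 1002 after *Dj1* knockdown. For both, scramble replicate 2 was the highest array and DJ-1 siRNA replicate 3 the lowest, and the groups were far apart. The log2 fold changes were -1.28 (95% confidence interval -1.65 to -0.90, adjusted p = 0.00372 from limma) and -1.22 (-1.62 to -0.82, adjusted p = 0.00459 from limma), so that both probes gave nearly the same size, and both calls held under all 15 alternatives tried. Ifit3b, whose gene is a near copy of IFIT3, has a probe of its own (ILMN_1246194, matched by gene number), which fell by 1.31 on the log2 scale (adjusted p = 0.00361 from limma). The probes' sequences were not used here, so signal from the transcripts of IFIT3 and Ifit3b cannot be told apart.

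IFIT2, an RNA-binding member of the family, changed less. Its probe ILMN_2981169 gave a deposited signal of 1223, 1115 and 1102 on the scramble arrays against 724, 884 and 774 on the DJ-1 siRNA arrays. Its probe ILMN_2981167 gave 918, 1077 and 1024 after scramble siRNA and 762, 869 and 665 after *Dj1* knockdown. The groups did not overlap for either probe, but scramble replicate 1 was the highest array for the first and the lowest scramble array for the second. The log2 fold changes were -0.57 (95% confidence interval -0.85 to -0.28, adjusted p = 0.0153 from limma) and -0.41 (-0.68 to -0.14, adjusted p = 0.0369 from limma). The first call was lost without DJ-1 siRNA replicate 1 (log2 fold change -0.48, adjusted p = 0.0581, and between 0.00134 and 0.0581 over all alternatives). The second was lost under 9 of 15 alternatives, among them the removal of any array but scramble replicate 1, which left the log2 fold change between -0.43 and -0.35. Its adjusted p over all alternatives was between 0.0108 and 0.115.

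IFIT1, which recognizes RNA whose cap lacks methylation, had 1 probe (ILMN_2774340), and it was not detected on any array. Its deposited signal was 131, 141 and 128.5 on the scramble arrays against 149, 152 and 134 on the DJ-1 siRNA arrays. The lowest signal of a detected probe was 187, 187 and 167 on the scramble arrays against 171, 177 and 162 on the DJ-1 siRNA arrays, so that all 6 values were below it and no fold change is given.

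**Figure D3:**
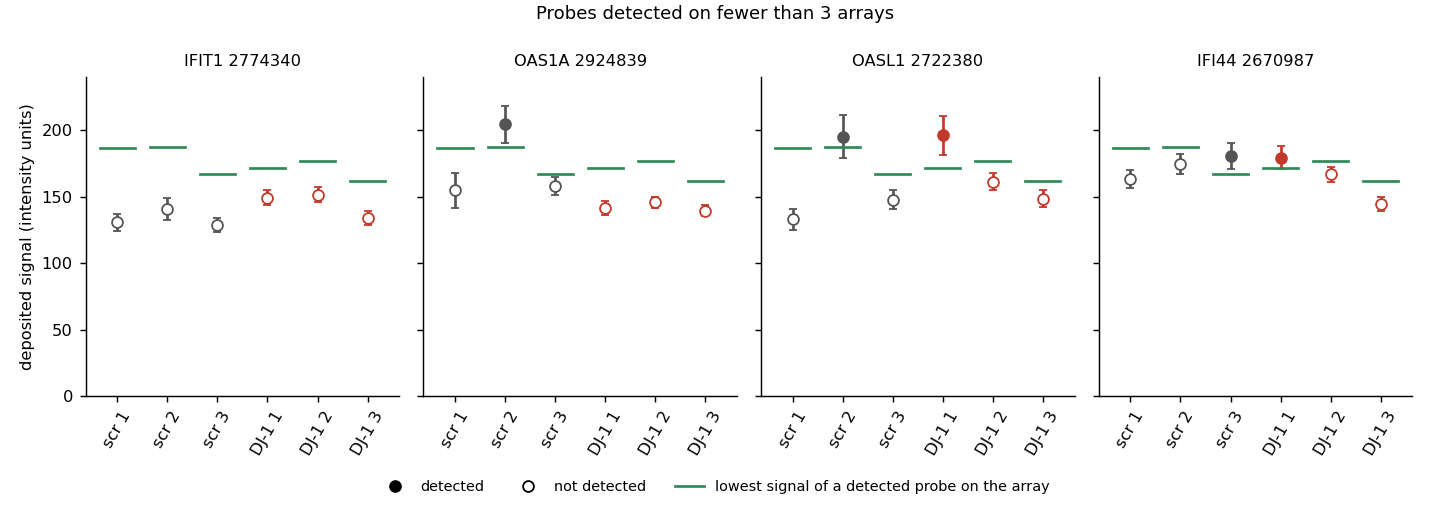
Deposited signal (vertical axis, intensity units) of the 4 member probes that were detected on fewer than 3 arrays and were not tested, on the scramble (scr, grey) and DJ-1 siRNA (red) arrays. Bars are the standard error over beads, filled circles are arrays where the probe was detected, and green lines give the lowest signal of a detected probe on that array. IFIT1 lies under the green line on all 6 arrays, and OAS1A rises above it on scramble replicate 2 alone.

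Of the OAS family, OAS1A, an oligoadenylate synthetase, had 1 probe (ILMN_2924839). It gave a deposited signal of 155, 204.5 and 158 on the scramble arrays against 141.5, 146 and 139.5 on the DJ-1 siRNA arrays. Scramble replicate 2 was the only array on which it was detected, with a detection p-value of 0.015, and it was not tested. OASL1 and OASL2 carry ubiquitin-like domains at their ends. OASL1, which has no synthetase activity, had 3 probes. The first (ILMN_2793464) gave a deposited signal of 241.5, 315 and 288 on the scramble arrays against 192, 206 and 188 on the DJ-1 siRNA arrays. A second (ILMN_2717366) gave 207, 221 and 245 after scramble siRNA and 187, 167 and 165 after *Dj1* knockdown, and was not detected on DJ-1 siRNA replicate 2. The groups did not overlap for these 2 probes, and the DJ-1 siRNA values were close to the lowest signal of a detected probe. The third (ILMN_2722380) was detected on scramble replicate 2 (195) and DJ-1 siRNA replicate 1 (196) alone, and its groups overlapped. The log2 fold change of the first was -1.11 (95% confidence interval -1.59 to -0.62, adjusted p = 0.0102 from limma). Its call held under all 15 alternatives, with adjusted p up to 0.0489, but without background correction the log2 fold change was -0.47. The second probe gave -0.96 (-1.61 to -0.32, adjusted p = 0.0381 from limma), or -0.33 without background correction, and lost its call under 8 of the 14 alternatives that kept it, with adjusted p between 0.0169 and 0.119. Among them was the removal of each array but scramble replicate 1, with log2 fold changes between -1.14 and -0.71.

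OASL2, which has kept synthetase activity, had 2 probes, both detected on all arrays. The first (ILMN_2954868) gave a deposited signal of 5038, 6364 and 5781 on the scramble arrays against 4496, 4633.5 and 3794 on the DJ-1 siRNA arrays. The other (ILMN_2599154) gave 281, 311 and 254 after scramble siRNA and 231, 264 and 204 after *Dj1* knockdown. For the second the deposited signals overlapped, since DJ-1 siRNA replicate 2 was above scramble replicate 3, and its groups were apart only after normalization. The log2 fold changes were -0.45 (95% confidence interval -0.72 to -0.18, adjusted p = 0.0273 from limma) and -0.50 (-0.84 to -0.17, adjusted p = 0.0368 from limma). The first call was lost under 8 and the second under 9 of 15 alternatives, with adjusted p up to 0.105 and 0.115. The first was lost without any array but scramble replicate 1 (log2 fold changes between -0.48 and -0.39). The second was lost without any array but DJ-1 siRNA replicate 2 (between -0.57 and -0.42). Without background correction the second was -0.24, and with arrays shifted to the same 75th percentile the first was -0.31.

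The ISG15 system is represented by the modifier and by its protease. The probe ILMN_1256257 carries the name LOC100038882 on the array, and its gene number is that of Isg15 in RefSeq. It was therefore described beside the member probes and not counted among them, while the promoter of Isg15 was found by name and was counted. Its deposited signal was 6268, 7841 and 6340.3 on the scramble arrays against 2134, 3218 and 1677 on the DJ-1 siRNA arrays. The lowest scramble array was well above the highest DJ-1 siRNA array. Its mean on the normalized log2 scale was 12.72 ± 0.17 (SD, n = 3) after scramble siRNA and 11.05 ± 0.34 (SD, n = 3) after *Dj1* knockdown, a signal 3.18-fold lower (95% confidence interval 2.33 to 4.33, adjusted p = 0.00317 from limma). USP18 removes ISG15 from proteins and also dampens signalling at IFNAR2. Its probe ILMN_3131679 gave a deposited signal of 3917.5, 5661 and 4800.5 on the scramble arrays against 1959, 2707 and 1465 on the DJ-1 siRNA arrays. Its probe ILMN_3054914 gave 909.8, 1101 and 855 after scramble siRNA and 428, 489 and 303 after *Dj1* knockdown. For ISG15 and both USP18 probes the highest array was scramble replicate 2, and the lowest was DJ-1 siRNA replicate 3. The USP18 probes were 2.52-fold (95% confidence interval 1.82 to 3.49, adjusted p = 0.00556 from limma) and 2.92-fold lower (2.12 to 4.03, adjusted p = 0.00374 from limma), and all 3 calls held under all 15 alternatives.

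RSAD2 had the largest fold change among the tested member probes. It encodes viperin, a radical SAM enzyme that makes a chain-terminating nucleotide. The deposited signal of its probe (ILMN_1225204) was 1323, 1718 and 1485 on the scramble arrays against 353, 495 and 259.6 on the DJ-1 siRNA arrays. All 3 DJ-1 siRNA arrays were detected, and the spread between them was wider than that between the scramble arrays, with an SD of 0.54 against 0.22 on the log2 scale (n = 3 each). The signal was 6.02-fold lower (95% confidence interval 3.83 to 9.46, log2 fold change -2.59, adjusted p = 0.00305 from limma). Its call held under all 15 alternatives, with log2 fold changes between -2.87 and -2.02. IFI44, an interferon-induced protein of less known function, had 2 probes. The first (ILMN_2680136) gave a deposited signal of 419.7, 433.5 and 411 on the scramble arrays against 246, 267 and 212 on the DJ-1 siRNA arrays. The arrays of a group were close together and the groups apart, and the log2 fold change was -1.33 (95% confidence interval -1.58 to -1.07, adjusted p = 0.0025 from limma), or -0.75 without background correction. The other (ILMN_2670987) was detected on scramble replicate 3 and DJ-1 siRNA replicate 1 alone, with deposited signals between 145 and 180.5 that overlapped between groups, and it was not tested.

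**Figure D4:**
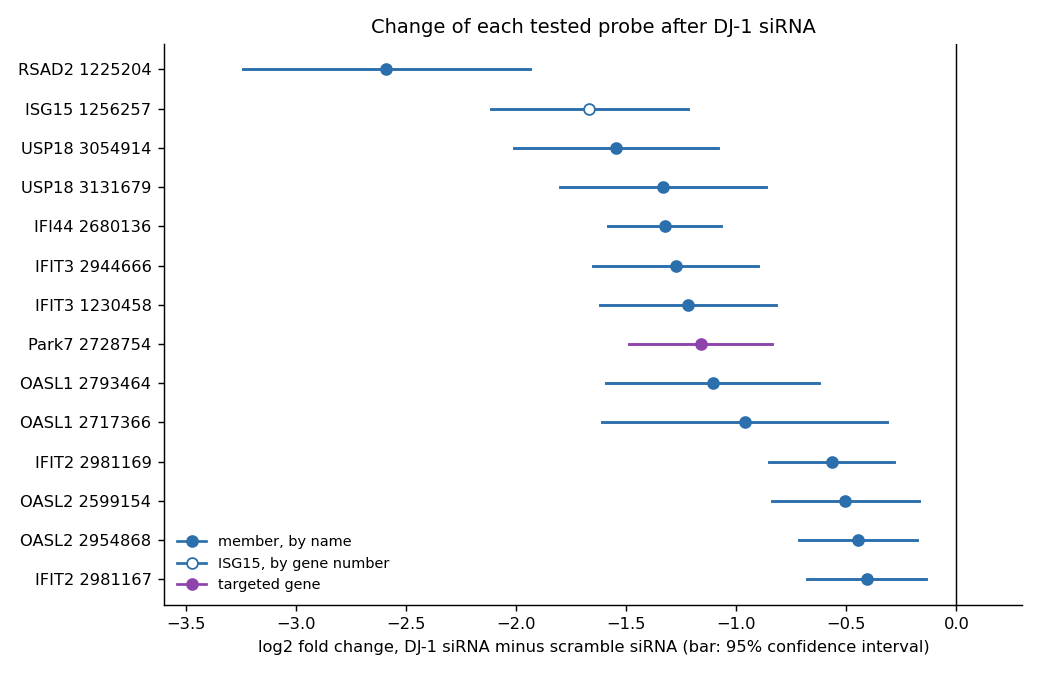
Log2 fold change of each tested probe, DJ-1 siRNA minus scramble siRNA (horizontal axis), with its 95% confidence interval from limma, in order of size. Filled blue circles are members found by name, the open circle is ISG15 found by its gene number, and purple is the targeted gene *Park7*. No interval reaches 0, and the IFIT2 and OASL2 probes lie closest to it.

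Within a group the arrays were not alike for these genes. Scramble replicate 1 was the lowest scramble array for 9 of the 12 tested member probes (for 38.7% of all tested probes), and scramble replicate 2 was the highest for 8 (32.7% of all). Among the DJ-1 siRNA arrays, replicate 3 was the lowest for 8 of the 12 (35.8% of all) and replicate 2 the highest for 7 (35.8% of all). *Park7* was also lowest on DJ-1 siRNA replicate 3. So were the median deposited signal of the array (152.3) and the summed signal of the myotube probes (169333). A link between any of these and the member values was not tested. The relative standard error over beads of the tested member probes was between 2.67% and 10.2% on single arrays, the latter for the second OASL1 probe.

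Other genes of the pathway were read from lists of 136 genes, of which 130 had a probe on the array. Of 234 probes 136 were tested, 56 (41.2%) were lower after *Dj1* knockdown, 10 were higher, and 70 did not pass the threshold (limma), with a median log2 fold change of -0.37. Of all tested probes of the array, 13.6% were lower and 16.5% higher. These lists too were chosen with earlier results of these data known, so their counts are descriptions. Without DJ-1 siRNA replicate 1, 35 of the 136 were lower, as were 1172 of all 17890 tested probes. Of the 136, 2 passed the detection filter through the DJ-1 siRNA arrays alone (1 interferon and 1 signalling probe). Through the scramble arrays alone 0 passed. The interferons themselves were mostly not measurable. Of 18 interferon genes, 14 were not detected on any array, Ifnb1 among them, and 1 of 5 tested probes was higher, that of Ifnab (log2 fold change 0.40, adjusted p = 0.0438 from limma). It lost its call under 11 of 15 alternatives. Among them was the removal of any array but scramble replicate 1 (log2 fold changes between 0.29 and 0.45). None of the 8 tested receptor probes, which cover 4 of the 6 receptor genes, passed the threshold (limma). The probe of Ifnar1 was not detected on any array, and the Ifnar2 probes gave log2 fold changes of -0.19 (95% confidence interval -0.53 to 0.14, adjusted p = 0.332 from limma) and -0.52 (-1.03 to -0.01, adjusted p = 0.111 from limma). The second of these passed without scramble replicate 3 (log2 fold change -0.74, adjusted p = 0.0266), the only alternative under which it did, and gave -0.30 without scramble replicate 2 (adjusted p = 0.217) and -0.22 without background correction.

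Of 40 tested signalling probes, 12 (30%) were lower and 7 were higher, against 13.6% and 16.5% of all tested probes. The transcription factor gene Stat2 (ILMN_2657822) had a deposited signal of 510.4, 623.5 and 484.7 on the scramble arrays against 332.9, 399.6 and 287.5 on the DJ-1 siRNA arrays. Its groups did not overlap, and its log2 fold change was -0.89 (adjusted p = 0.00839 from limma). Irf9 had 1 probe that was lower (log2 fold change -0.72, adjusted p = 0.0115 from limma) and 1 that did not pass (-0.44, adjusted p = 0.198 from limma). The latter passed without scramble replicate 1 (-0.71, adjusted p = 0.00906). Its fold change was smaller, in the same direction, without scramble replicate 2 (-0.26, adjusted p = 0.439). Irf7, a transcription factor of interferon genes, gave -0.64 (adjusted p = 0.0157 from limma), a call lost without DJ-1 siRNA replicate 1 (-0.60) or replicate 3 (-0.59). Of 17 tested probes of RNA and DNA sensors, 11 were lower and 0 higher. The kinase Eif2ak2 fell by 1.33 on the log2 scale, and 2 probes of the RNA-editing enzyme Adar fell, the first by 1.21 on the log2 scale. The other tested Adar probes gave -0.03 and -0.34 and did not pass, so that probes of this gene differed.

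Of the 7 tested probes of other OAS and IFIT genes, 4 were lower, 0 were higher and 3 did not pass the threshold (limma). Of all tested probes on the array, 13.6% were lower and 16.5% were higher. The synthetase gene Oas1g (ILMN_2628822) had a deposited signal of 778.5, 993 and 797 on the scramble arrays against 401, 418 and 299 on the DJ-1 siRNA arrays. Its groups were apart, and the probe fell by 1.52 on the log2 scale (adjusted p = 0.00309 from limma), while another Oas1g probe fell by 1.49. As the probes' sequences were not used, signal from the transcripts of Oas1g and other Oas1 genes cannot be told apart. Of 5 tested probes for enzymes that attach ISG15, 2 were lower and 3 did not pass, against 13.6% lower over the array. Uba7, the activating enzyme of ISG15, gave -0.78 (adjusted p = 0.00659 from limma) and the ligase gene Arih1 gave -0.61 (adjusted p = 0.0398 from limma). The Arih1 call was lost under 7 of 15 alternatives, among them the removal of any array but scramble replicate 2 (log2 fold changes between -0.68 and -0.45). The probes of Ube2l6, its conjugating enzyme, gave -0.51 (adjusted p = 0.081 from limma) and -0.47 (adjusted p = 0.175 from limma). Both passed without scramble replicate 1 (-0.65 and -0.71), and the first passed under 4 other alternatives. Without scramble replicate 2 they gave -0.30 (adjusted p = 0.115) and -0.23 (adjusted p = 0.375). The ligase Herc6 was not detected on any array.

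Of 54 tested probes of other interferon-induced genes, 27 were lower and 2 higher, against 13.6% and 16.5% of all tested probes. Their median log2 fold change was -0.48. The kinase gene Cmpk2 (ILMN_1240864) had a deposited signal of 456.5, 703 and 574 on the scramble arrays against 189, 226 and 163 on the DJ-1 siRNA arrays. The groups were apart, although the DJ-1 siRNA values were near the detection limit. The log2 fold change was -2.84 (adjusted p = 0.00304 from limma), or -1.53 without background correction. The chemokine Cxcl10 (ILMN_3142803) had a deposited signal of 636, 865 and 741 on the scramble arrays against 231, 247 and 195 on the DJ-1 siRNA arrays. The GTPase gene Irgm1 (ILMN_2711172) was detected on all 3 scramble arrays and 1 of 3 DJ-1 siRNA arrays, and can be read as lower only, with no size (adjusted p = 0.00509 from limma). Another Irgm1 probe (ILMN_1234539), detected on all arrays, gave a log2 fold change of -1.53, while ILMN_2804037 did not pass the threshold (log2 fold change 0.05, adjusted p = 0.718 from limma), so that probes of this gene differed too.

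**Figure D5:**
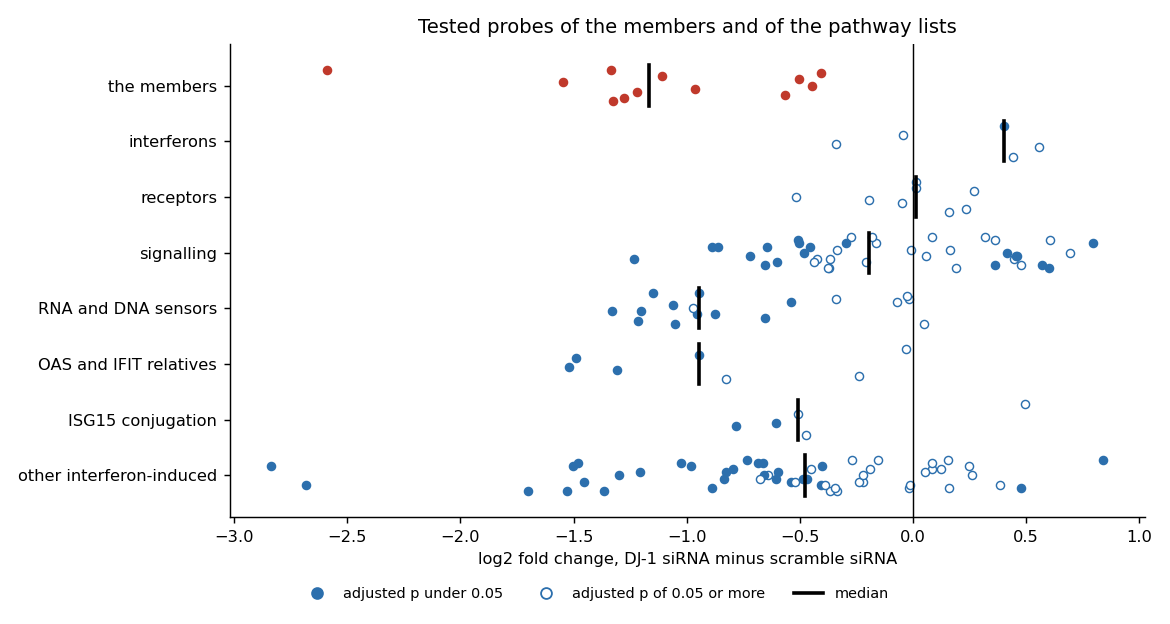
Log2 fold changes, DJ-1 siRNA minus scramble siRNA (horizontal axis), of the tested member probes (red) and of the tested probes of each pathway list (blue). Filled circles had an adjusted p under 0.05 from limma, open circles did not, and black bars are medians. The members and the sensor and OAS and IFIT relative lists have medians near -1, while the interferon and receptor lists lie around or above 0. The interferon list rests on 5 tested probes of 33. Of these, 1 passed the detection filter through the DJ-1 siRNA arrays alone, which favours a higher value for it.

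The genes outside these lists whose probes were most like the members over the 6 arrays were Palld, Tenm4, LOC230765, LOC100047915 and Pfn1. Their Pearson r with the mean standardized log2 signal of the 12 tested member probes was 0.998 or more. As both groups enter such a value, any probe with a large and even difference scores high, and no p is given. Their log2 fold changes were between -1.17 for LOC230765 and -0.61 for Palld, an actin-binding protein. Without background correction that of LOC230765 was -0.54 and that of Tenm4, -0.67 before, was -0.31.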

How the data were processed

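The authors quantified the arrays with GenomeStudio. The deposited values are, per probe and array, the mean signal intensity, the detection p-value and other values (standard error over beads, bead number), and the intensity is not normalized or background-subtracted. R 4.3.3 and limma 3.58.1 were used. Background was corrected by normexp (offset 16), with negative controls taken from the detection p-values, and arrays were quantile normalized and put on the log2 scale with neqc. Probes needed a detection p under 0.05 on 3 or more arrays, which left 17890 for lmFit and eBayes with Benjamini-Hochberg adjustment. RefSeq (GRCm38.p6) matched 32345 probes by gene number or accession.

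The pathway genes named are, per list, up to 3 called probes with the largest change, with core genes of the pathway called or not, and the 5 genes most like the members are named too, though not every gene under this rule is named. The further probes of Adar and Irgm1 fall outside this rule, were named after their values were seen, and were not run through the alternatives. The members and lists were chosen with earlier results of these data known. Alternatives were another or no background correction, another scaling, no or a stricter filter, a trend in the prior variance, a plain unpaired test in place of the moderated one, a block for the replicate number, the removal of each array, and probe means per gene.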

Additional observations from a re-analysis of the deposited data

How the results depend on the processing

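The call and direction of *Park7* held under every alternative, with an adjusted p of 0.0206 at most. No probe that was followed through the alternatives changed direction. Of the 12 tested member probes, 7 (IFIT3, USP18, RSAD2, IFI44 and the first of OASL1) were called lower under every alternative, and 5 (IFIT2, OASL2 and the second of OASL1) lost the call under some. The groups of these 12 probes stayed apart under every setting that kept single probes, with 11 of them tested under the stricter filter. With an array left out, 7 to 11 member probes were lower, 35 to 55 pathway probes were lower, and 2564 to 5290 probes changed across the array, in place of 12, 56 and 5387. The lowest of each came without DJ-1 siRNA replicate 1, where 1172 of all 17890 tested probes were lower. Without DJ-1 siRNA replicate 3, 2718 probes changed. Without a filter 3519 probes changed (1611 lower) and 8 member probes were lower, as 45281 probes were then tested. With the mean of the probes of a gene, 7 of 7 tested member genes were lower, as were 1854 of all 12771 tested genes. Deviations of same-numbered samples from their group means correlated at 0.05, 0.05 and 0.02, which does not pair the samples, although each sample correlated best with its own number. With the replicate block, 4350 probes changed across the array (1989 lower), 9 member probes and 51 pathway probes were lower, and *Park7* stayed at -1.16. Signal close to background limits the size of the fold changes of OASL1, IFI44, the second OASL2 probe, Cmpk2, Irgm1, Tenm4 and LOC230765, and no value is given for IFIT1.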
